A study of Homo sapiens with 6 samples.

Results

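The genes described here encode the IkB proteins NFKBIA (IkB-alpha), NFKBIB (IkB-beta), NFKBIE (IkB-epsilon) and BCL3, and the ubiquitin-editing enzyme A20 (TNFAIP3). They also encode the IkB kinase complex, made of the catalytic subunits IKK-alpha (CHUK) and IKK-beta (IKBKB) and the scaffold NEMO (IKBKG). They were chosen by gene symbol in the platform annotation, which gave 21 of the 15246 probes on the array and 7 of the 8 symbols. IKBKB was not analysed here. The array named 4604 symbols in all. TNFAIP3 had 6 probes, NFKBIA 5, BCL3 3, NFKBIB, NFKBIE and CHUK 2 each, and IKBKG 1. A value was present on all 6 arrays for 16 of the 21 probes, and all 7 genes had an averaged value on all 6 arrays and were tested.

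The cells were Jurkat, an established line grown from a human T-cell leukaemia, and their RNA was read on 6 two-colour arrays. RPS3 siRNA was used on 3 arrays and p65 siRNA on the other 3, where RPS3 is a ribosomal protein that also binds p65, and p65 is the NF-kB subunit encoded by RELA. Each array set the siRNA cells (Cy5) against cells given nonspecific control siRNA (Cy3), and all cells were stimulated with anti-CD3/CD28 for 1, 3 or 6 h, with 1 array per siRNA and time. No unstimulated sample was among the arrays, so they compare levels after stimulation and do not measure induction by it. Both siRNAs were set against control siRNA of the same time, and the labels do not say whether 1 control culture served both, so the RPS3 and p65 ratios may share control RNA. Values are log ratios, read as log2 and as siRNA over control, the likely direction. Neither the log base nor the direction was stated, and a natural log would make each size larger.

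NF-kB dimers are held in the cytoplasm by IkB proteins. Stimulation of the T-cell receptor activates the IkB kinase complex, which phosphorylates IkB-alpha, IkB-beta and IkB-epsilon and marks them for destruction, so that NF-kB enters the nucleus. NFKBIA and TNFAIP3 are themselves classical NF-kB target genes: newly made IkB-alpha recaptures NF-kB, and A20 removes or edits the ubiquitin chains that carry the signal to the kinase, which makes them feedback inhibitors. BCL3 is an atypical, mainly nuclear IkB that binds p50 and p52 homodimers, and it was counted here with the inhibitor genes. The kinase subunits are made constitutively in most cells.

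The promoters of NFKBIA and TNFAIP3 are shown because these transcripts had the lowest ratios of the group, that of NFKBIB because it also holds a match although its ratios lay near 0, and that of CHUK as a kinase gene. Each run gives the 250 bases upstream of a RefSeq start in GRCh38.p14, 5′ to 3′ on the gene's strand, and capitals mark matches on either strand to the decameric NF-kB consensus. RefSeq places the genes at chr14:35401513-35404749 (NFKBIA), chr19:38899666-38908889 (NFKBIB), chr6:44258166-44265551 (NFKBIE), chr19:44747705-44760044 (BCL3), chr6:137866349-137883312 (TNFAIP3), chr10:100186319-100229596 (CHUK) and chrX:154541238-154565046 (IKBKG). The printed windows are chr14:35404750-35404999 for NFKBIA (minus strand), chr6:137867009-137867258 for TNFAIP3 (plus strand), chr19:38899719-38899968 for NFKBIB (plus strand) and chr10:100229597-100229846 for CHUK (minus strand).
NFKBIA: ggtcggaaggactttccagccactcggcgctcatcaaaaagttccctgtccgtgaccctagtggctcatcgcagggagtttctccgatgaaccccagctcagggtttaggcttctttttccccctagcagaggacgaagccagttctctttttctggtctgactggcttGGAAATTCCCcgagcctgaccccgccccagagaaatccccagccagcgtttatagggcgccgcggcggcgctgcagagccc
TNFAIP3: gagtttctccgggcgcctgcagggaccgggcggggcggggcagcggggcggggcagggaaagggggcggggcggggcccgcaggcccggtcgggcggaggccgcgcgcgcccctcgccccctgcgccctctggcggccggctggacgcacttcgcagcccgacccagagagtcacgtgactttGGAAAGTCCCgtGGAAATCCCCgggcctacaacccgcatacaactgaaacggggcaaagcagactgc
NFKBIB: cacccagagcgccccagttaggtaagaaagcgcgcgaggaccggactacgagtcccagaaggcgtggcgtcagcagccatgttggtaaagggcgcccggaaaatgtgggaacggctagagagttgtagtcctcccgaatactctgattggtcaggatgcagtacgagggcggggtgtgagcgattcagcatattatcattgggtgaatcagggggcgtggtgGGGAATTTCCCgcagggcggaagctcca
CHUK: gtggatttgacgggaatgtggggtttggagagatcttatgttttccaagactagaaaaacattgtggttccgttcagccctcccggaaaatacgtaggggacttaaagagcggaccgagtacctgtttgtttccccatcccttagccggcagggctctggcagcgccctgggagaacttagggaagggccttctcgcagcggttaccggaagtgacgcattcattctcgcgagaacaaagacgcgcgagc
TNFAIP3 held 2 matches, GGAAAGTCCC and GGAAATCCCC, which begin 67 and 55 bases upstream of the start. NFKBIA held 1 match, GGAAATTCCC, beginning 81 bases upstream. In NFKBIB a single stretch matched on both strands, in 1 of its 2 windows. The windows of BCL3, CHUK and IKBKG (1, 1 and 4 windows) held no match, which says only that these letters are not in these windows. Of 35116 such windows of all genes, 9.96% held at least 1 match and 1.72% at least 2, overlapping ones included. RefSeq windows were found for 6 of the 8 genes.

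The arrays carried values for 12946 to 14423 probes. The 6 h arrays had the most blank cells (15.1% with RPS3 siRNA and 14.8% with p65 siRNA), against 5.40% to 10.1% on the other 4. The only RPS3 probe read -2.50, -2.53 and -1.44 at 1, 3 and 6 h with RPS3 siRNA, and 0.11, 0.0060 and 1.11 with p65 siRNA. RELA probe 15848_1 read -1.28, -0.99 and -0.94 with RPS3 siRNA and -0.71, -0.985 and -1.05 with p65 siRNA, while probe 28407_1 read 0.50, -0.40 and -0.14 with RPS3 siRNA and -0.12, 0.06 and -0.13 with p65 siRNA. Averaged over both probes, RELA was at -0.54 with RPS3 siRNA and -0.49 with p65 siRNA, so the ratio of the p65 target was low on both sets of arrays. Since only ratios were used, the levels of T-cell markers in the cells could not be checked. Less of a transcript per cell and fewer cells making it cannot be told apart in such samples.

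TNFAIP3 had the lowest mean ratio of the group with either siRNA, although BCL3 lay below it on the RPS3 siRNA 6 h array. Averaged over its 6 probes, it read -0.99, -0.54 and -0.38 at 1, 3 and 6 h on the RPS3 siRNA arrays, and -1.19, -1.34 and -0.59 on the p65 siRNA arrays. Every array lay below 0, and the 6 h array was the highest with either siRNA. The mean was -0.64 ± 0.32 with RPS3 siRNA (SD, n = 3), or 1.55-fold lower than control, and -1.04 ± 0.40 with p65 siRNA (SD, n = 3), or 2.05-fold lower. Among 3932 named genes tested it ranked 18 from the lowest on the RPS3 siRNA arrays and 3 from the lowest on the p65 siRNA arrays. It did not pass on either set of arrays, with a limma adjusted p of 0.373 for RPS3 siRNA and 0.624 for p65 siRNA.

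NFKBIA was also below 0 throughout. Over its 5 probes it read -0.91, -0.51 and -0.37 at 1, 3 and 6 h with RPS3 siRNA, and -0.995, -0.79 and -0.46 with p65 siRNA. The lowest value was at 1 h and the highest at 6 h for either siRNA, and the RPS3 and p65 values overlapped. Its mean was -0.60 ± 0.28 with RPS3 siRNA and -0.75 ± 0.27 with p65 siRNA (SD, n = 3 each), 1.51-fold and 1.68-fold lower than control. The limma adjusted p was 0.360 and 0.935 in the same order, so neither mean passed. It ranked 22 and 7 from the lowest among named genes.

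BCL3 was below 0 on all 6 arrays too, with means nearer 0 than those of TNFAIP3 and NFKBIA. It read -0.65, -0.17 and -0.55 with RPS3 siRNA, and -0.25, -0.45 and -0.33 with p65 siRNA. On the RPS3 siRNA 6 h array it was the lowest of the 7 genes. The RPS3 and p65 values overlapped and showed no common order of times. The means were -0.46 ± 0.25 and -0.34 ± 0.10 (SD, n = 3 each; limma adjusted p = 0.373 and 0.935). Its averages rest on different probes from array to array: probe 17945_1 was blank on both 6 h arrays and probe 27954_1 on the p65 siRNA 3 h array. Probe 27942_1, the only one with all values, read -0.80, -0.20 and -0.71 with RPS3 siRNA and -0.46, 0.0020 and -0.51 with p65 siRNA.

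**Figure D1:**
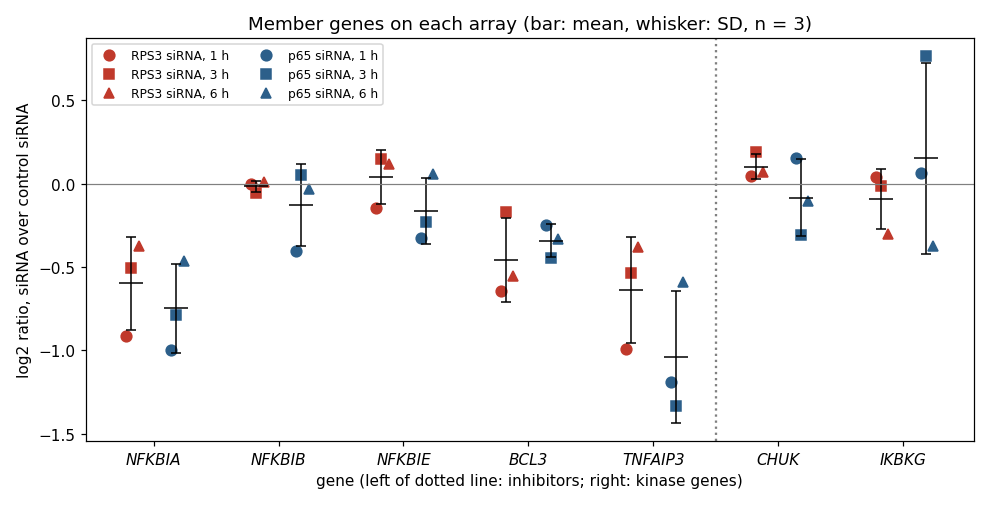
Log2 ratio (vertical axis) of the 7 measured genes, probes averaged, with RPS3 siRNA in red to the left of p65 siRNA in blue; symbols give the time and bars the mean and SD of 3 arrays. TNFAIP3, NFKBIA and BCL3 lie below 0 on all 6 arrays, while the other 4 genes lie on both sides of 0.

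The other IkB genes lay close to 0. NFKBIB read -0.0030, -0.06 and 0.010 with RPS3 siRNA, and -0.41, 0.05 and -0.03 with p65 siRNA. The p65 siRNA 1 h array stood below the rest, in both probes (-0.35 and -0.47). NFKBIE read -0.15, 0.15 and 0.12 with RPS3 siRNA, and -0.32, -0.23 and 0.06 with p65 siRNA. Its probes disagreed: 24773_1 read 0.65, 0.41 and -0.26 with RPS3 siRNA, where 35310_1 read -0.95, -0.11 and 0.50. Averaging them hides opposite orders of times, and with only 35310_1 kept the RPS3 siRNA mean was -0.19 in place of 0.04. Adjusted p-values of limma for NFKBIB and NFKBIE were 0.988 and 0.954 with RPS3 siRNA and 0.945 and 0.936 with p65 siRNA.

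The kinase genes had no common direction. CHUK read 0.05, 0.19 and 0.07 with RPS3 siRNA, and 0.15, -0.31 and -0.10 with p65 siRNA. Its mean was 0.10 ± 0.08 with RPS3 siRNA and -0.08 ± 0.23 with p65 siRNA (SD, n = 3 each; limma adjusted p = 0.849 and 0.961). IKBKG, on its single probe, read 0.04, -0.013 and -0.30 with RPS3 siRNA, and 0.06, 0.77 and -0.37 with p65 siRNA. The 3 h array with p65 siRNA stood far above the others, and without it the p65 siRNA mean was -0.16 in place of 0.15 ± 0.57. Adjusted p-values for IKBKG were 0.933 with RPS3 siRNA and 0.957 with p65 siRNA by limma. IKBKG also has a near-identical pseudogene copy, whose RNA these ratios cannot tell apart. The 95% intervals ran from -0.17 to 0.38 for CHUK and from -0.55 to 0.37 for IKBKG with RPS3 siRNA. With p65 siRNA they ran from -0.36 to 0.19 and from -0.31 to 0.61, in the same order of genes. The intervals of IKBKG with RPS3 siRNA and of CHUK with p65 siRNA include the BCL3 mean for the same siRNA, and the other 2 lie above it.

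**Figure D2:**
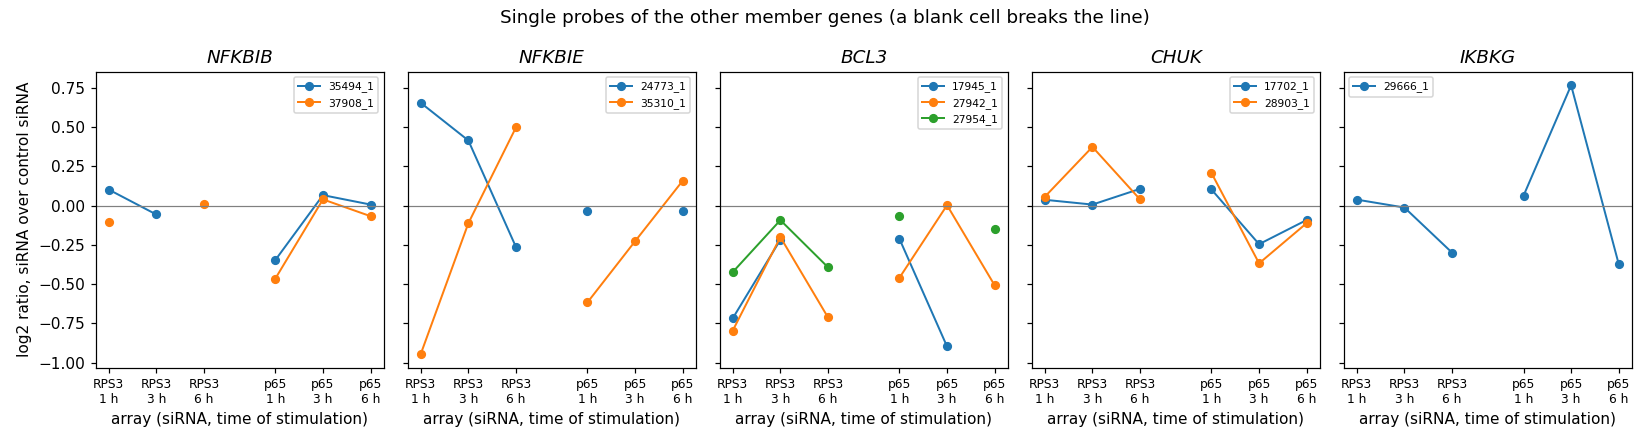
Log2 ratio of each probe of NFKBIB, NFKBIE, BCL3, CHUK and IKBKG on the 6 arrays, RPS3 siRNA left and p65 siRNA right in each panel, by time. The NFKBIE probes run in opposite directions over time with RPS3 siRNA, and IKBKG reaches 0.77 on the p65 siRNA 3 h array.

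Counted over the group, 5 of 7 genes had a mean below 0 with RPS3 siRNA and 6 of 7 with p65 siRNA, with medians of -0.09 and -0.16. Over all 7267 features tested, 47.1% were below 0 with RPS3 siRNA (median 0.012) and 45.2% with p65 siRNA (median 0.018). None of the 7 genes passed with RPS3 siRNA, with p65 siRNA, in their difference, in the mean of both or in the slope over time (limma adjusted p under 0.05), and percent passing over all features was 0 in each. At an unadjusted p under 0.05, 3 of 7 were lower with RPS3 siRNA, where 4.76% of all features were, and 3 of 7 with p65 siRNA, where 2.24% were. In the mean of both it was 3 of 7 too, where 5.13% of all features were lower. These were NFKBIA, BCL3 and TNFAIP3 in each case. The 3 genes lay below 0 on all 3 RPS3 siRNA arrays, as did 15.5% of all features, and on all 3 p65 siRNA arrays, as did 9.66%. On all 6 arrays it was 3.18% of all features.

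The mean of the inhibitor genes lay below that of the kinase genes on each array. Over all arrays NFKBIB and NFKBIE averaged -0.07 and -0.06, near CHUK (0.0089) and IKBKG (0.03). The low inhibitor mean thus came mostly from TNFAIP3, NFKBIA and BCL3. The mean of the 5 inhibitor genes (the IkB genes with BCL3, and TNFAIP3) minus that of CHUK and IKBKG was -0.58, -0.31 and -0.12 at 1, 3 and 6 h with RPS3 siRNA. It was -0.74, -0.78 and -0.03 with p65 siRNA. The value of -0.78 rests on the single IKBKG probe, which read 0.77 on that array where CHUK read -0.31. Against CHUK alone, a comparison added after the data were seen, the inhibitor mean differed by -0.59, -0.41 and -0.31 with RPS3 siRNA, and by -0.79, -0.24 and -0.17 with p65 siRNA. At 1 h all 5 inhibitor genes lay below the lower of the kinase genes with either siRNA. At 3 h this held for 4 of 5 with RPS3 siRNA and 3 of 5 with p65 siRNA. At 6 h it held for 3 of 5 and 2 of 5 in the same order. The mean difference was -0.34 ± 0.23 with RPS3 siRNA and -0.52 ± 0.42 with p65 siRNA (SD, n = 3 each). No test was made of this difference, because the genes were chosen with earlier results known. Against CHUK alone it was -0.44 ± 0.14 with RPS3 siRNA and -0.40 ± 0.34 with p65 siRNA (SD, n = 3 each). Without the 6 h arrays the mean difference from both kinase genes was -0.45 with RPS3 siRNA and -0.76 with p65 siRNA.

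**Figure D3:**
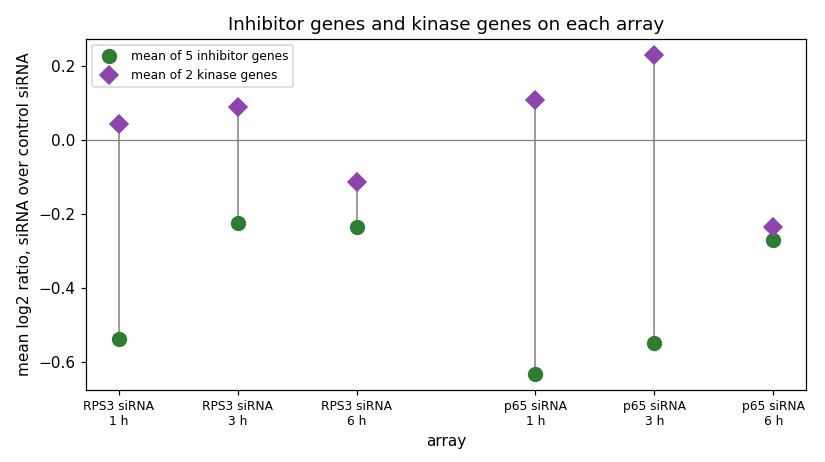
Mean log2 ratio of the 5 inhibitor genes (circles) and the 2 kinase genes (diamonds) on each array, RPS3 siRNA left and p65 siRNA right, joined by a line. The inhibitor mean lies below the kinase mean on all 6 arrays, with differences of -0.78 on the p65 siRNA 3 h array, where IKBKG read 0.77 and CHUK -0.31, and of -0.03 on the p65 siRNA 6 h array.

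Taking the 6 arrays together, the mean ratio was -0.84 ± 0.39 for TNFAIP3 (1.79-fold lower), -0.67 ± 0.26 for NFKBIA (1.59-fold lower) and -0.40 ± 0.18 for BCL3 (1.32-fold lower; SD, n = 6 arrays). It was -0.07 for NFKBIB, -0.06 for NFKBIE, 0.0089 for CHUK and 0.03 for IKBKG. With genes as the unit, TNFAIP3 and NFKBIA both had a limma adjusted p of 0.128 and BCL3 of 0.261. Of 14 alternatives TNFAIP3 passed under 1, quantile normalization (-0.84, limma adjusted p = 0.0392), and not under the other 13. The count over all features is given below with the processing alternatives. All arrays had the same dye orientation, so a dye effect of a probe would stay in these means and was not tested.

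Of the 16 complete probes, 9 lay below 0 on all 6 arrays, against 3.8% of all complete probes. With every probe tested alone, 6 of the 16 complete probes fell in the mean of both siRNAs, where 0.187% of all 10721 probes did (20 probes, all lower). The 3 TNFAIP3 probes that fell averaged -0.88 (28987_1, limma adjusted p = 0.0085), -0.85 (16398_1, 0.0088) and -0.79 (28986_1, 0.0158). The 3 NFKBIA probes that fell averaged -0.76 (28424_1, limma adjusted p = 0.0273), -0.82 (24499_1, 0.0303) and -0.66 (15866_1, 0.0490). Probes of a gene read the same transcript and are not replicates. The call depended on single arrays: 0 of the 16 probes passed without the RPS3 siRNA 1 h, the p65 siRNA 1 h or the p65 siRNA 3 h array, and 1 without the RPS3 siRNA 3 h array. Without the RPS3 siRNA 6 h or the p65 siRNA 6 h array, 6 passed each time. Over these fits without 1 array, the count passing among all probes also varied, from 0 to 27. Without both 6 h arrays 10 of the 16 probes passed, where 2.02% of all probes were lower. A fit that blocked on time gave 10, all 6 TNFAIP3 probes and 4 NFKBIA probes, where 0.41% of all probes were lower. With the run of ID numbers in the labels as a covariate 2 TNFAIP3 probes passed, and the count over all probes is given below with the processing alternatives.

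**Figure D4:**
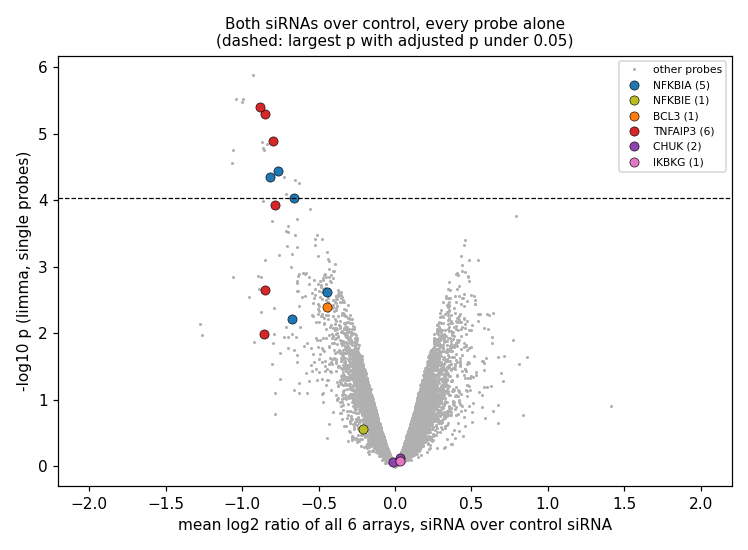
Mean log2 ratio of all 6 arrays (horizontal axis) against -log10 of the limma p (vertical axis) for 10721 probes tested alone, with the 16 complete probes of the group coloured by gene. On or above the dashed line, 3 TNFAIP3 and 3 NFKBIA probes lie to the left of 0. The CHUK and IKBKG probes lie near 0, below the line.

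The probes of TNFAIP3 and NFKBIA disagreed on the 6 h arrays. At 6 h, TNFAIP3 probe 35299_1 read 0.15 with RPS3 siRNA and 0.07 with p65 siRNA, and probe 34761_1 read -0.14 and -0.27. NFKBIA probe 34886_1 read 0.08 and -0.07 in the same order. The other 4 TNFAIP3 probes lay between -0.73 and -0.45 with RPS3 siRNA and between -0.91 and -0.70 with p65 siRNA, and the other 4 NFKBIA probes between -0.59 and -0.24 and between -0.86 and -0.30. Over both siRNAs, the 6 h mean was above the 1 h mean by 1.64 (35299_1), 1.15 (34886_1) and 1.11 (34761_1) for these 3 probes, and by 0.11 to 0.45 for the other 8. Their slopes over time did not pass (limma adjusted p = 0.0555, 0.0555 and 0.0840 in that order), and the cause of the disagreement was not tested. At 1 h the same 3 probes were the lowest of their gene with either siRNA: 35299_1 read -1.41 with RPS3 siRNA and -1.64 with p65 siRNA, against -1.21 and -1.42 for 34761_1, and 34886_1 read -0.98 and -1.30.

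**Figure D5:**
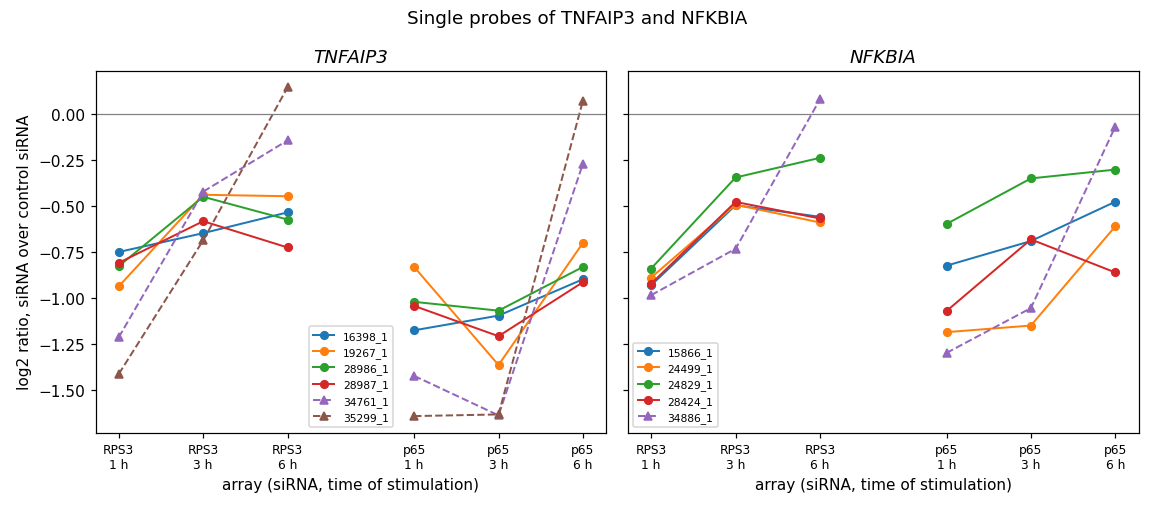
Log2 ratio of each probe of TNFAIP3 (left panel) and NFKBIA (right panel) on the 6 arrays, RPS3 siRNA left and p65 siRNA right in each panel. Dashed lines with triangles are the 3 probes whose 6 h mean was above the 1 h mean by more than 1; the solid lines stay below 0 on all arrays.

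The slope of the log2 ratio over time was 0.12 ± 0.04 per hour for TNFAIP3 and 0.10 ± 0.03 per hour for NFKBIA (± SE, n = 6 arrays), with limma adjusted p of 0.139 and 0.130. Tested alone, TNFAIP3 probes 35299_1 and 34761_1 had slopes of 0.34 and 0.23, and its other probes 0.022 to 0.066. For NFKBIA, probe 34886_1 had a slope of 0.24 and the other probes 0.049 to 0.086. BCL3 had a slope of -0.0027 ± 0.04 and CHUK of -0.02 ± 0.04, and IKBKG one of -0.09 ± 0.06 (± SE, n = 6 arrays). At an unadjusted p under 0.05, 2 of 7 genes had a positive slope, where 14.2% of all features did. NFKBIE and IKBKG lay on opposite sides of 0 at 1 h and 6 h on both sets of arrays, as did 24.1% of all features. Of the probes, 5 of 16 were higher on both 6 h arrays than on all 4 earlier ones, against 22.8% of all probes, so a higher 6 h value was common on these arrays. T cell identity markers (11 tested of 14) also had higher ratios late, with 8 of 11 at a positive slope at an unadjusted p under 0.05 and 0 passing. Their median was -0.14, -0.0025 and 0.56 at 1, 3 and 6 h with RPS3 siRNA and -0.06, -0.21 and 0.33 with p65 siRNA. Of 9 reference genes 4 had a positive slope and 1 a negative one at that p, and ACTB read 0.86 with RPS3 siRNA and 0.92 with p65 siRNA at 6 h. GAPDH had a slope of 0.20 per hour and B2M one of -0.09 (limma adjusted p = 0.112 and 0.165). Among the T cell markers, ZAP70 and CD28 had slopes of 0.18 and 0.16 per hour (limma adjusted p = 0.0884 and 0.139), and CD2 averaged 0.46 with RPS3 siRNA (0.349). The part of these shifts in the time course of TNFAIP3 and NFKBIA was not tested.

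With both 6 h arrays left out, each siRNA mean rested on its 1 h and 3 h arrays alone. In that fit 7 probes of the group fell on the p65 siRNA arrays with each probe tested alone, where 0.41% of all probes fell. They were 5 TNFAIP3 probes, with means from -1.64 to -1.04 (limma adjusted p = 0.0146 to 0.0287), and NFKBIA probes 34886_1 (-1.18, adjusted p = 0.0195) and 24499_1 (-1.17, adjusted p = 0.0209). On the RPS3 siRNA arrays 0 passed in that fit, where 0.14% of all probes fell. With all 6 arrays, 0 of the 16 probes passed for RPS3 siRNA alone, where 0.0653% of all probes fell, and 0 for p65 siRNA alone. At an unadjusted p under 0.05, 9 were lower with RPS3 siRNA, where 5.62% of all probes were, and 11 with p65 siRNA, where 2.71% were. The lowest limma adjusted p for p65 siRNA was 0.0782, for TNFAIP3 probes 16398_1 and 28987_1.

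The arrays of the RPS3 siRNA were then compared with those of the p65 siRNA. TNFAIP3 was less low with RPS3 siRNA at each time, by 0.20, 0.80 and 0.21 at 1, 3 and 6 h, a mean difference of 0.40 ± 0.34 (SD, n = 3 times; limma adjusted p = 1.00, 95% interval -0.17 to 0.97). NFKBIA differed by 0.08, 0.28 and 0.09, with a mean of 0.15 ± 0.11 (95% interval -0.33 to 0.63). For NFKBIE the mean difference was 0.20 ± 0.16 and for BCL3 -0.12 ± 0.35. NFKBIE probe 24773_1 was blank on the p65 siRNA 3 h array, so its averages there rest on different probes. The complete NFKBIE probe 35310_1 alone gave a difference of 0.04. In this comparison 0 of 7 genes and 0 of 16 probes passed, and at an unadjusted p under 0.05 it was 0 genes, where 2.55% of all features were, and 1 probe, TNFAIP3 16398_1, which was higher, as were 0.933% of all probes. Within the runs of ID numbers, TNFAIP3 differed by 0.65 in the run with the RPS3 siRNA 3 h and p65 siRNA 1 h arrays and by 0.28 in the other 4 arrays, and NFKBIA by 0.49 and -0.020. Each run mixes times as well as siRNAs.

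The rest of the pathway was read from lists of genes. Of 13 genes between the T-cell receptor and the IkB kinase, 0 passed in any comparison and the median was 0.011 with RPS3 siRNA and -0.04 with p65 siRNA. UBE2V1, a partner of the enzyme that builds K63-linked ubiquitin chains, averaged -0.33 with p65 siRNA (adjusted p = 0.935 by limma). In the same list the kinase gene AKT1 had a slope of 0.28 per hour and the chaperone gene HSP90AA1 one of -0.10 (adjusted p = 0.0866 and 0.135). Genes of IkB ubiquitination and degradation (4 tested of 13) had medians of 0.08 and 0.05. BTRC, which encodes the ubiquitin ligase subunit that recognises phosphorylated IkB, had a slope of 0.17 per hour (adjusted p = 0.101), reading 0.80 with RPS3 siRNA and 0.71 with p65 siRNA at 6 h. RBX1, the RING subunit of the same ligase complex, had a slope the other way, -0.11 per hour (adjusted p = 0.148), reading -0.44 with RPS3 siRNA and -0.15 with p65 siRNA at 6 h.

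A20 partners and other inhibitors of NF-kB signalling (7 tested of 17) had medians of 0.05 with RPS3 siRNA and -0.14 with p65 siRNA, and 0 passed. CYLD, a deubiquitinase that restrains the same pathway as A20, lay on the other side of 0 from TNFAIP3 with RPS3 siRNA: it read 0.36, 0.31 and 0.58 with RPS3 siRNA and 0.03, -0.53 and 0.07 with p65 siRNA (RPS3 siRNA mean 0.42, limma adjusted p = 0.498). Its difference of 0.56 between the siRNAs did not pass (limma adjusted p = 1.00). Genes of the other IkB kinases and the alternative pathway (7 tested of 9) had medians of -0.06 and -0.12, and 7 of 7 means were below 0 with RPS3 siRNA. TNFRSF1A, a receptor for TNF, averaged 0.27 with p65 siRNA (adjusted p = 0.935).

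The NF-kB subunit genes had medians of -0.12 with RPS3 siRNA and -0.29 with p65 siRNA, with 4 of 5 and 5 of 5 means below 0 and 0 passing. One of the 5 is RELA, the target of the p65 siRNA. REL and NFKB2 had slopes of 0.11 and 0.09 per hour (adjusted p = 0.131 and 0.188). Of 45 NF-kB target genes outside the group, 22 were below 0 with RPS3 siRNA and 30 with p65 siRNA. Their medians were 0.0068 and -0.05, and REL is in both lists. CD83, found on activated lymphocytes and dendritic cells, averaged -0.58 with RPS3 siRNA and -0.47 with p65 siRNA (adjusted p = 0.306 and 0.935). The early activation marker CD69 averaged -0.40 with p65 siRNA, and FAS, a death receptor, -0.50 with RPS3 siRNA (adjusted p = 0.935 and 0.422). MYC, a growth-promoting transcription factor, averaged 0.39 with RPS3 siRNA (adjusted p = 0.513). IRF1, an interferon-regulatory transcription factor, averaged -0.38 over both siRNAs and had a slope of 0.11 per hour (adjusted p = 0.360 and 0.125). The cytokine gene IL6 lay on the other side, above 0 on all 6 arrays with a mean of 0.31 (adjusted p = 0.429). VCAM1, an adhesion molecule, and BCL2A1, a survival factor of the BCL2 family, each had a slope of -0.13 per hour (adjusted p = 0.185 and 0.113). So the ratios of TNFAIP3 and NFKBIA were lower than the median target gene, and whether they differ from such genes as a class was not tested. Markers of other cell lineages (11 tested of 20) had medians of 0.04 with RPS3 siRNA and 0.14 with p65 siRNA, and 0 passed. Of these, NCAM1 averaged 0.24 over both siRNAs (adjusted p = 0.456), and VIM and PECAM1 had slopes of -0.09 and 0.10 per hour (adjusted p = 0.157 and 0.209).

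The genes nearest to TNFAIP3 and NFKBIA over the 6 arrays were found by the root mean square difference of their log2 ratios. The gene nearest to TNFAIP3 was NFKBIA, at 0.25, where the median over all named genes was 0.95. Next came INO80D (0.31), DNAJC3 (0.32), PARPBP (0.35) and CENPE (0.37). The gene nearest to NFKBIA was TNFAIP3, followed by ASPM, CD83, RGS16 and CENPE, all at 0.25 to 0.26, against a median of 0.77. All of these genes were below 0 on all 6 arrays, and the measure says nothing of shared control. A small difference need not mean a like order of arrays. Pearson r with NFKBIA was 0.88 for TNFAIP3 and 0.83 for RGS16, but 0.50 for CD83, 0.46 for ASPM and 0.40 for CENPE.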

How the data were processed

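The deposited values were log2 ratios of the 2 channels per probe (log base and direction not stated), with array medians near 0 as the authors deposited them; per the labels, control siRNA RNA was labelled with Cy3 and p65 or RPS3 siRNA RNA with Cy5. Image analysis, background correction, normalization and the rule for blank cells are not given in the sources used here, so how far a signal stood above background cannot be given and precision is limited by the number of arrays. Each array was centred on its median. Of 15246 probes 10169 had 1 gene symbol, 4 had several and 5073 none; 10128 matched a current gene record and 0 changed symbol. Probes of a symbol were averaged, and 7267 features with a value on all 6 arrays (3932 named) were tested in R 4.3.3 by limma 3.58.1 (lmFit, eBayes; group means over all 6 arrays, no block), the 3 times standing as replicates of a siRNA. The same fit was run on 10721 probes alone. Benjamini-Hochberg adjusted p under 0.05 counted as passing. The fit was tested on simulated data in which each array had independent noise. The arrays here were correlated, as given below, so that test does not show the error rate in these data. Each ratio includes control RNA, so any spread among control cultures was not estimated apart from that of the siRNA cells. No label states that arrays stem from separate cultures, so the p-values reflect differences among these arrays alone, which may be technical. The labels give no replicate numbers; arrays were matched by time only as an alternative. Over all probes the lowest correlation between 2 arrays was -0.22 and the highest 0.69, between the 6 h arrays of the 2 siRNAs. Arrays of different siRNAs also correlated at 0.47 (RPS3 1 h with p65 3 h) and 0.46 (RPS3 3 h with p65 1 h), each pair within 1 run of ID numbers, so the 6 arrays in the mean of both are not shown to be independent. Named genes were all members, the targets of the siRNAs, from each list those passing or else up to 2 lowest and 2 highest with 1 sign and an unadjusted p under 0.05, and the 5 nearest genes of TNFAIP3 and NFKBIA. Members and lists were chosen with earlier results of these data known. Promoter sequences are RefSeq's (GRCh38.p14).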

Additional observations from a re-analysis of the deposited data

Results flagged for a closer look

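The effects at 2 times had opposite signs on both arrays of each time for the following; these differences were not tested, and they are common on these arrays, since 24.1% of all features had opposite signs at 6 h and 1 h and 22.8% at 6 h and 3 h. NFKBIE was 0.32 higher at 6 h than at 1 h, above 0 on both 6 h arrays and below 0 on both 1 h arrays. Its probe 35310_1 was 1.11 higher at 6 h than at 1 h and 0.50 higher than at 3 h. TNFAIP3 probe 35299_1 was 1.64 higher at 6 h than at 1 h and 1.27 higher than at 3 h. IKBKG, which has the single probe 29666_1, differed by -0.39 between 6 h and 1 h, below 0 on both 6 h arrays and above 0 on both 1 h arrays. No gene or complete probe of the group had all RPS3 siRNA arrays on one side of 0 and all p65 siRNA arrays on the other, as 1.55% of all features did.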

How the results depend on the processing

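TNFAIP3, NFKBIA and BCL3 stayed below 0 with RPS3 siRNA, with p65 siRNA and in the mean of both under all 14 alternatives run, and of these means only TNFAIP3 in the mean of both passed under any (quantile normalization, -0.84, adjusted p = 0.0392). For the mean of both, alternatives gave adjusted p-values of 0.0392 to 0.387 for TNFAIP3, 0.0557 to 0.387 for NFKBIA and 0.125 to 0.590 for BCL3. The inhibitor genes minus the kinase genes stayed below 0 throughout, also against CHUK alone, which was added after seeing the data (-0.42 over all arrays). With the time point as a block, limma called 3 features for RPS3 siRNA and 2 for RPS3 siRNA minus p65 siRNA; with single probes it called 2 for that difference, and 55 for the mean of both (10 of the group) against 20 (6 of the group). With the run of ID numbers as a covariate, single probes gave 0 calls for RPS3 siRNA against 7, and 8 for the mean of both (2 of the group); the slope was 0.0347 for BCL3 and 0.00725 for CHUK. Without centring the BCL3 slope was 5.04e-05, and with the median of a gene's probes 0.00125. Quantile normalization gave 2 calls for RPS3 siRNA, 1 for the difference, 8 for the mean of both and 1 for the slope; with single probes it gave 2 for RPS3 siRNA and 1 for the difference, and IKBKG averaged -0.011 over both siRNAs. Keeping only complete probes, NFKBIE averaged -0.19 with RPS3 siRNA and NFKBIB had no value, since both its probes have a blank. Probes with at least 4 of 6 values gave 0 calls for RPS3 siRNA and 12 for the mean of both (3 of the group). Without both 6 h arrays there were 3 calls for RPS3 siRNA, 1 for the difference and 1 for the mean of both; single probes gave 15 for RPS3 siRNA, 44 for p65 siRNA (7 of the group), 2 for the difference and 225 for the mean of both (10 of the group). IKBKG then averaged 0.012 with RPS3 siRNA, and the slope was 0.0683 for BCL3 and 0.16 for IKBKG. Testing every probe in place of genes gave 7 calls for RPS3 siRNA and 20 for the mean of both. Leaving out 1 array gave 0 to 2 calls for RPS3 siRNA with genes and with single probes (2 without either 6 h array), 0 to 2 for the difference with single probes (2 without the RPS3 siRNA 6 h array), 0 to 27 single probes for the mean of both (0 to 6 of the group), and 0 to 607 features for the slope (607 without the p65 siRNA 1 h and 273 without the p65 siRNA 3 h array). It also turned the sign of genes near 0. With RPS3 siRNA NFKBIB ran from -0.03 to 0.0035, NFKBIE from -0.015 to 0.13 and IKBKG from -0.16 to 0.012. With p65 siRNA NFKBIB ran from -0.22 to 0.011, CHUK from -0.20 to 0.0263 and IKBKG from -0.16 to 0.41. For the difference NFKBIB ran from -0.0274 to 0.20 and IKBKG from -0.51 to 0.0637, and for the mean of both CHUK ran from -0.0509 to 0.0645 and IKBKG from -0.12 to 0.16. The slope ran from -0.0425 to 0.0216 for BCL3, from -0.0042 to 0.0552 for NFKBIB and from -0.0411 to 0.0192 for CHUK. Apart from fits with fewer arrays or features, the cause was not tested. No paired analysis by replicate number was possible because the labels number no replicates; the block above matches arrays by time.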

Other observations

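Among the 20 probes that fell in the mean of both siRNAs when tested alone, the 14 outside the group included 4 of CD83, 3 of SGK1, a serum- and glucocorticoid-regulated kinase, and 2 of the mitotic kinesin CENPE. RELA, SPI1, a transcription factor of myeloid and B cells, and ASPM, a spindle protein, had 1 each, and 2 were unnamed. These genes were named because their probes passed, and a call on a single probe need not hold for the other probes of its gene. RELA probe 28407_1 read 0.50, -0.40 and -0.14 with RPS3 siRNA and -0.12, 0.06 and -0.13 with p65 siRNA. Another SPI1 probe averaged -0.00625 over both siRNAs when tested alone. ASPM, averaged over its probes, lay below 0 on all 6 arrays.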
